A study of Mus musculus with 4 samples.

Results

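The comparison described here set the dorsal against the ventral wall of the mouse trachea in control animals, each taken as whole tissue into 1 single-cell RNA library. Its members were all cell barcodes of these libraries with at least 500 detected genes and at most 15% of their unique molecular identifiers (UMIs, the counted RNA molecules) from mitochondrial genes. That left 13246 of 13962 dorsal and 9744 of 11150 ventral barcodes, together 22990 of the 35901 barcodes that passed in the 4 libraries of the series. A barcode was placed in the epithelial compartment when it held at least 1 UMI of Epcam, an epithelial adhesion protein, and none of Ptprc, the leukocyte surface phosphatase CD45. It was placed in the immune compartment in the reverse case, and called other when it held neither.

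The control mice carried the alleles P63-CreER and Ki67-lsl-Dre, the reporter Rosa26-rsr-GFP and the genotype Ctnnb1-fl/+, were given tamoxifen and were sampled 10 days later. By its promoter the Cre acts in basal cells, which express P63. The controls carried 1 floxed allele of beta-catenin, which the Cre could therefore cut in those cells. The trachea was microdissected into dorsal and ventral portions, dissociated with papain, cleared of red cells and captured with a 5′ GEM-X kit, without a sort for cell type. The other pair of libraries came from mice with Ctnnb1-fl/fl and otherwise the same alleles and treatment; it shares no library with the controls. Its values are set beside the controls' as a second dissection of each wall in another genotype, not as a replicate. How many mice went into each library, and their age, is not stated in the labels, so every ratio below compares 1 library with 1 library, and its 95% interval covers counting error only.

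The trachea is a tube held open ventrally and laterally by C-shaped cartilages and closed dorsally by a band of smooth muscle, the trachealis. Its surface epithelium holds basal stem cells, secretory and multiciliated cells, and rare tuft, ionocyte and neuroendocrine cells. Hillocks are patches of stratified, keratin-rich epithelium, and submucosal glands, which open into the upper airway, make lysozyme, mucins and other secreted proteins. The thyroid lies against the upper ventral trachea and is not part of the airway.

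The dorsal library held 286711618 UMIs and the ventral 204278955 before filtering. The median kept cell had 15181.5 UMIs and 4086 detected genes dorsally, and 13750.5 UMIs and 3788.5 genes ventrally. The libraries shared 57 barcode sequences as deposited and 43 among kept cells. Both contained Xist RNA in all 3 compartments, and the Y-linked Ddx3y and Uty gave 1 UMI each, both in ventral other cells. In epithelial cells Ctnnb1, the gene that is floxed, stood at 239.5 and 194.6 CPM, the gene's UMIs scaled to a total of 1000000 per compartment and library, in the control dorsal and ventral libraries, and at 186.3 and 155.1 CPM in the corresponding knockout libraries. RNA of the eGFP reporter was at 327 CPM in dorsal and 291 CPM in ventral epithelial cells. At least 1 eGFP UMI was found in 84.1% and 79.5% of these cells, but also in 46.8% and 45.6% of immune cells, which are far shallower, so the share with 1 UMI does not count labelled cells. With at least 5 UMIs, the shares were 45.3% and 44.7% in the epithelium against 1.87% and 2.36% in immune cells, and after cells were thinned to 4000 UMIs they were 10.9% and 8.22% in the epithelium.

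Epithelial cells made up more of the dorsal than of the ventral library, and cells with neither marker made up less. The epithelial share was 69.7% of dorsal cells (9238 cells, exact interval 69.0% to 70.5%) and 50.3% of ventral cells (4899 cells, 49.3% to 51.3%), a difference of 19.5 percentage points (18.2 to 20.7). Other cells were 26.4% of the dorsal (3493 cells) and 43.1% of the ventral library (4200 cells), a difference of -16.7 points (-18.0 to -15.49). Immune cells were 3.22% of the dorsal (427 cells) and 5.65% of the ventral library (551 cells), a difference of -2.43 points (-2.99 to -1.89). Barcodes with both markers were 0.664% and 0.965% and entered no further comparison. More cells of a type in the wall and more cells of that type released by dissociation cannot be told apart here. Median depth was 21739.5 and 22901 UMIs in dorsal and ventral epithelial cells, 6457 and 7940 in immune cells, and 7774 and 10123 in other cells. Since a deeper cell is more likely to show 1 UMI of a marker, cells were also thinned to 2000 UMIs, which left out 555 dorsal and 589 ventral cells: the epithelial shares were then 47.5% and 32.3%, the immune shares 2.47% and 4.34%, and the other shares 49.9% and 63.1%.

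**Figure D1:**
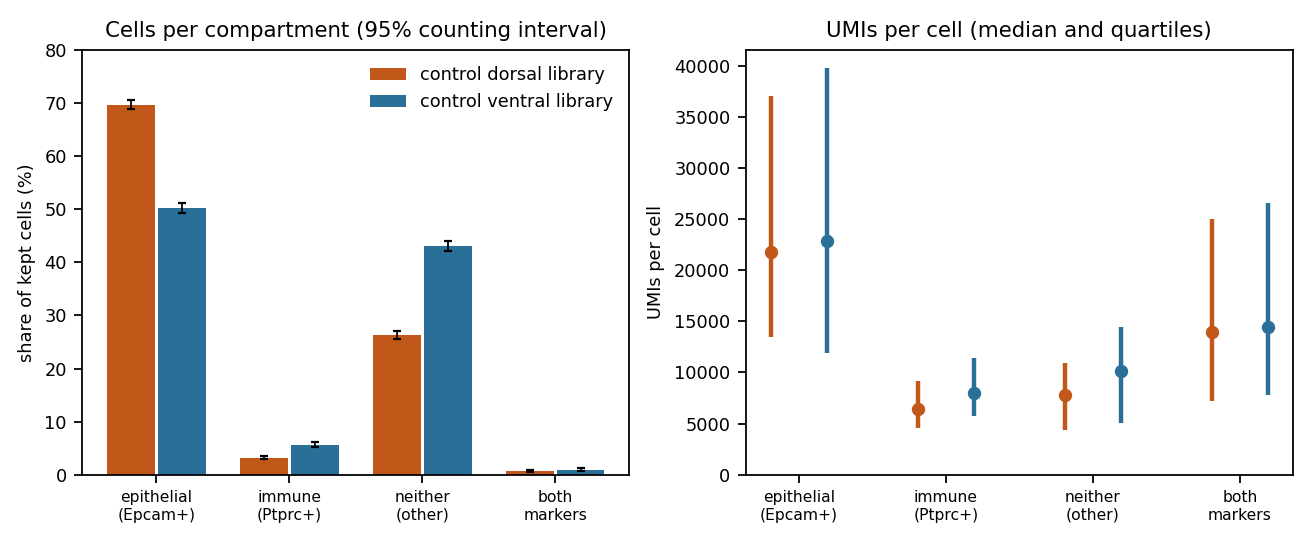
Left, the share of kept cells (%) in each compartment of the control dorsal and ventral libraries, with exact 95% binomial intervals; right, UMIs per cell as median and quartiles. Epithelial cells are 69.7% of the dorsal and 50.3% of the ventral library, and the other compartment 26.4% and 43.1%.

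The compartments carried the genes their names call for. After thinning to 4000 UMIs, a panel of epithelial genes without Epcam was found in 98.6% of dorsal and 89.9% of ventral epithelial cells, and in 5.01% and 4.91% of other cells. A panel of leukocyte genes without Ptprc was found in 98.6% and 98.1% of immune cells and in 1.04% and 1.23% of other cells. Within compartments, cells were then marked by lists of cell type genes, a cell counting as marked when at least 3 genes of a list each had 2 UMIs or more after thinning to 4000 UMIs, which left out 1139 dorsal and 1395 ventral cells. These marks are not clusters, and a cell could carry several.

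Among the epithelial marks, hillock cells were more frequent on the dorsal side and gland cells on the ventral side. Hillock-marked cells were 9.001% of dorsal epithelial cells (808 of 8977, 8.42% to 9.61%) and 0.653% of ventral ones (29 of 4441, 0.438% to 0.936%), and none of the 351 dorsal and 481 ventral immune cells was marked. The mark is a range rather than a type: 724 dorsal and 68 ventral epithelial cells carried exactly 2 of the genes, and without thinning the shares were 22.6% and 3.47%. The gland mark was found in 2 dorsal epithelial cells (0.0223%) and in 1047 ventral ones (23.6%). It was also found in 15.8% of ventral and 0% of dorsal immune cells (0 of 351, exact upper bound 1.05%). That is the level in cells that should lack gland RNA, against which the ventral epithelial share has to be read. Basal-marked cells were 38.7% of dorsal and 29.3% of ventral epithelial cells, a difference of 9.47 points (7.79 to 11.1). The multiciliated mark was at 12.2% and 9.12%. Gland and thyroid cells, delimited below, were part of the ventral cells behind these shares. Before thinning the ventral epithelial compartment held 4899 cells with them and 3695 without, and the dorsal one 9238 either way. The basal and multiciliated marks were not recounted without these cells, so their part in both differences was not tested. The secretory mark covered 98.9% and 84.0%, but 51.9% of dorsal and 24.3% of ventral immune cells carried it too. The 3 rare surface types were all more often marked ventrally: tuft in 6 dorsal and 24 ventral cells, ionocyte in 3 and 8, and neuroendocrine in 0 and 29. Thyroid follicular cells were marked 0 times dorsally and 153 times ventrally, 3.45% of ventral epithelial cells.

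**Figure D2:**
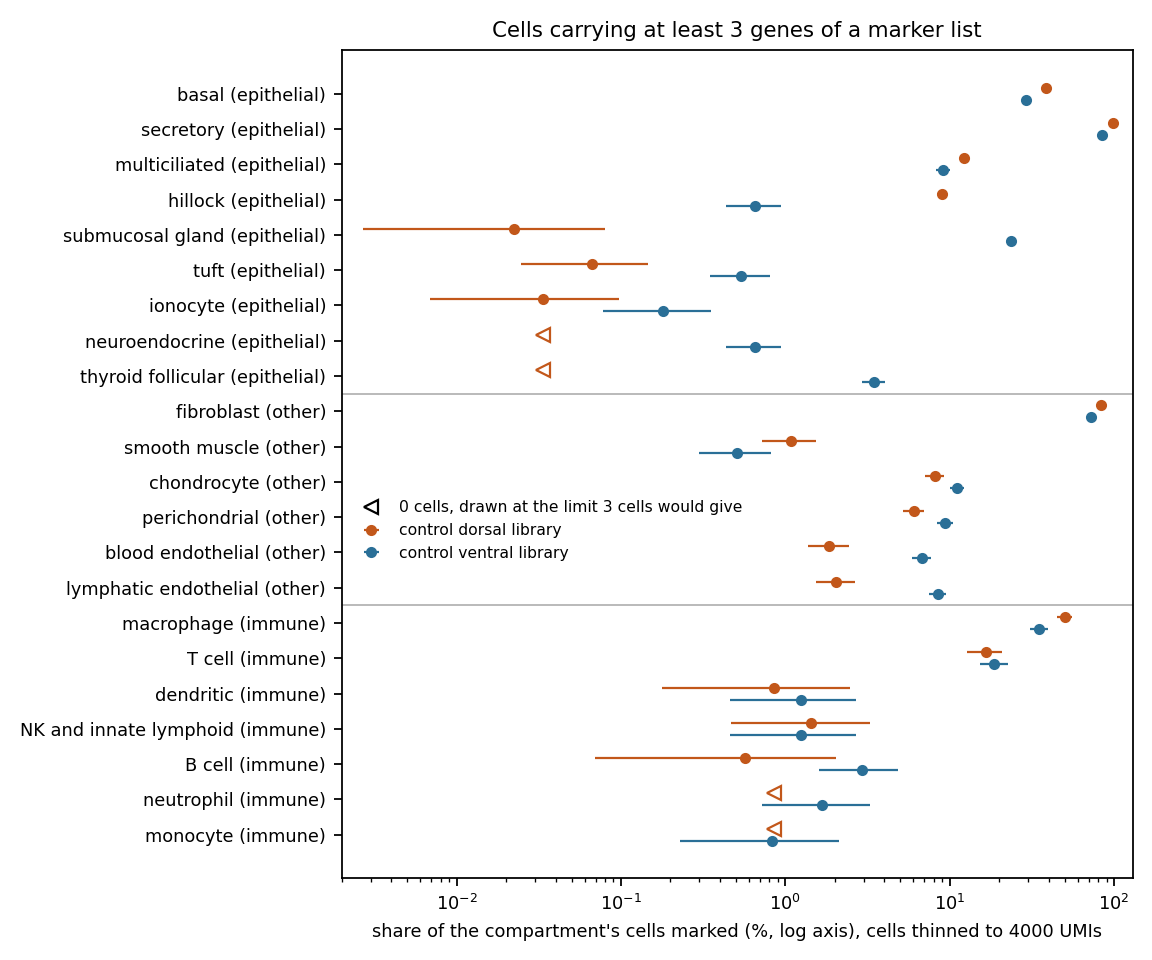
Share of each compartment's cells (%, log axis) that carried at least 3 genes of a marker list after thinning to 4000 UMIs, with exact 95% intervals. Open triangles are lists with 0 cells, drawn at the share that 3 cells would give. Hillock cells sit at 9.001% dorsally and 0.653% ventrally, and submucosal gland cells at 0.0223% and 23.6%.

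Because gland RNA was present in ventral cells of every compartment, gland and thyroid cells were also delimited by the share of a cell's UMIs that came from each list, a cut chosen after the values were seen. With more than 2% of UMIs from the gland list, 919 of 4899 ventral epithelial cells (18.8%, 17.7% to 19.9%) were gland cells, and 198 lay between 1% and 5%. No dorsal epithelial cell passed the cut (0 of 9238, exact upper bound 0.0399%), and 33 lay between 1% and 5%. With more than 0.5% of UMIs from the thyroid list, 288 ventral epithelial cells (5.88%, 5.24% to 6.57%) were thyroid cells and 15 lay near the cut. The knockout pair showed the same side: 615 of 2736 ventral epithelial cells and 0 of 3290 dorsal ones passed either cut. Without these cells the control epithelial share was 69.7% dorsally and 44.2% ventrally, and the median ventral immune cell still drew 0.144% of its UMIs from the gland list, against 0% for the median dorsal immune cell.

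Gene levels were compared as summed UMIs per compartment, in CPM. In the epithelium, 5983 genes had at least 50 UMIs and 20 CPM in 1 of the libraries. Of these, 159 (2.66%) were at least 2-fold higher dorsally and 196 (3.28%) at least 2-fold higher ventrally. Their median log2 ratio of dorsal to ventral was 0.11. The median over all 21728 genes with at least 10 UMIs was -0.17, and was -0.29 without gland and thyroid cells. The gene lists below are counted among these 21728 genes, of which 2.64% were at least 2-fold higher dorsally and 20.2% at least 2-fold higher ventrally.

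The ventral epithelial genes with the largest ratios encode secreted proteins of glands. Lipf, a gastric-type lipase, stood at 21007 CPM ventrally and had 3 UMIs dorsally, a dorsal-to-ventral ratio of 5.65e-07 (1.17e-07 to 1.65e-06). Dcpp2 and Dcpp3 belong to a cluster of genes for demilune cell and parotid secretory proteins: Dcpp2 was at 21927 CPM ventrally with 9 UMIs dorsally, and Dcpp3 at 16011 CPM with 2 UMIs. Dcpp1, with no dorsal UMI, was at least 149827-fold higher ventrally (1778 CPM, against a floor of 3 UMIs in the library). Sbpl, a gene beside them for a secreted spermine-binding-protein-like product, stood at 18029 CPM ventrally with 11 dorsal UMIs. Each of these RNAs also reached cells outside the epithelium: with gland and thyroid cells left out, Lipf was detected in 95.8% and Sbpl in 96.5% of ventral immune cells. Prb1, a proline-rich salivary-type protein, and Scgb2b17, a secretoglobin, had no dorsal UMI and were at least 9214-fold and 8862-fold higher ventrally. The same holds for Grp, which encodes gastrin-releasing peptide, a product of neuroendocrine cells, at least 9192-fold. Tg, the thyroid hormone precursor, was at 0.146 CPM dorsally and 2365 CPM ventrally. Wfdc18, a small secreted protein of the whey acidic family, was at 0.0870 and 1173 CPM. Without gland and thyroid cells the ventral levels were 231 CPM for Lipf, 106 for Dcpp2, 90.4 for Dcpp3, 642 for Sbpl and 14.3 for Tg. All 10 of these genes were also higher ventrally in the knockout pair.

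Dcpp1, Dcpp2, Dcpp3 and Sbpl lie within 74.6 kb of chromosome 17, and their sequences are shown because these 4 neighbours are among the 10 ventral genes with the largest ratios. The 100 bases before each start site, from RefSeq on the GRCm38 build, are printed 5′ to 3′ on the gene's strand, with capitals marking the letters TATAA found between 40 and 20 bases before the start.
Dcpp1: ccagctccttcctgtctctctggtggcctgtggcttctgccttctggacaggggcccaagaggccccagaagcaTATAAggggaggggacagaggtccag
Dcpp2: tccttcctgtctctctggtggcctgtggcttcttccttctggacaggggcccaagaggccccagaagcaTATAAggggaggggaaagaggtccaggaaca
Dcpp3: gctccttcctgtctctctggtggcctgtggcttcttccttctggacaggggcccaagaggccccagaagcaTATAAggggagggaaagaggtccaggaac
Sbpl: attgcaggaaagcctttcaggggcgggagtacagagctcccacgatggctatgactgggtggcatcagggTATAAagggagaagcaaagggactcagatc
These lie at chr17:23880776-23880875 on the plus strand, chr17:23898622-23898721 on the plus strand, chr17:23917358-23917457 on the plus strand and chr17:23955274-23955373 on the minus strand, in that order. The motif begins 26, 31, 29 and 30 bases before the start, again in that order, and none of the 4 windows holds it on the opposite strand. Over 32851 promoters of the table, 3.38% hold TATAA in this window on the gene strand and 1.52% on the other. The Dcpp promoters are 88.6% (Dcpp1 and Dcpp2), 90.4% (Dcpp1 and Dcpp3) and 96.1% (Dcpp2 and Dcpp3) identical, while Dcpp2 and Sbpl share 50.9%. The 3 Dcpp genes are near copies, so how the deposited counts divide reads among them is uncertain and their separate levels should be read together.

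On the dorsal side of the epithelium the genes with the largest ratios included keratins and serpins of stratified epithelium. Psca, a surface antigen of stratified and urothelial linings, was at 31.5 CPM dorsally and 1.10 CPM ventrally, a 28.7-fold difference (24.6 to 33.7), and was found in 3.28% of dorsal epithelial cells. Serpinb2, a protease inhibitor of keratinocytes and macrophages, was at 353 and 14.1 CPM (24.99-fold). S100g, a calcium-binding protein, stood at 173 and 6.94 CPM (24.97-fold). Krt13, the defining hillock keratin, was at 194 and 13.1 CPM (14.8-fold), and Krt6a, a keratin of stressed and stratified epithelia, at 87.2 and 8.02 CPM (10.9-fold). Serpinb10 was 13.7-fold, Clca3b 8.30-fold and Upk3bl, a uroplakin-like membrane protein, 7.82-fold higher dorsally. Ereg, the EGF-receptor ligand epiregulin, was at 21.5 and 1.52 CPM (14.2-fold). The list was thus led by genes of hillocks and other lining epithelia, and it also held 1 enzyme of Wnt secretion. Porcn, the acyltransferase that lipidates Wnt proteins, was at 304 and 36.3 CPM, 8.39-fold higher (8.16 to 8.62), and was detected in 87.2% of dorsal and 37.4% of ventral epithelial cells. All 10 of these genes were also higher dorsally in the knockout pair, by 2.23-fold for Ereg, 7.99-fold for Porcn, 67.5-fold for Krt13 and 75.7-fold for Psca.

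Without gland and thyroid cells these ratios were smaller and none of the 10 dorsal ones turned. Serpinb2 was then 18.6-fold, Krt13 11.1-fold, Krt6a 8.38-fold and Porcn 6.57-fold higher dorsally. Among genes found in at least 10% of the cells of the higher library, the 15 with the largest dorsal ratios also included Areg, the EGF-receptor ligand amphiregulin, at 350 and 52.5 CPM (6.68-fold), Sftpb, surfactant protein B (5.92-fold), Mal, an apical sorting protein, at 269 and 49.6 CPM (5.41-fold), and F5, coagulation factor V (5.32-fold). On the ventral side of the same cells stood Serpinb11, an epithelial serpin, at 11.7 and 105 CPM (8.995-fold higher ventrally), and Clca1, a secreted protein of mucous cells, at 6.46 and 43.7 CPM (6.77-fold). Transcription regulators stood there as well: Eya4 was at 9.31 and 65.2 CPM (7.001-fold) and the LIM homeodomain gene Isl1 at 8.32 and 41.1 CPM (4.94-fold). Gp2, Dmbt1 and Lyz1, products of secretory and glandular epithelium, were still 15.4-, 13.8- and 12.3-fold higher ventrally. Gland RNA was also seen in ventral immune cells, and the part of such free RNA in these values was not tested. All 15 dorsal and all 15 ventral genes chosen this way fell on the same side in the knockout pair, where Eya4 was 11.4-fold and Isl1 5.14-fold higher ventrally.

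**Figure D3:**
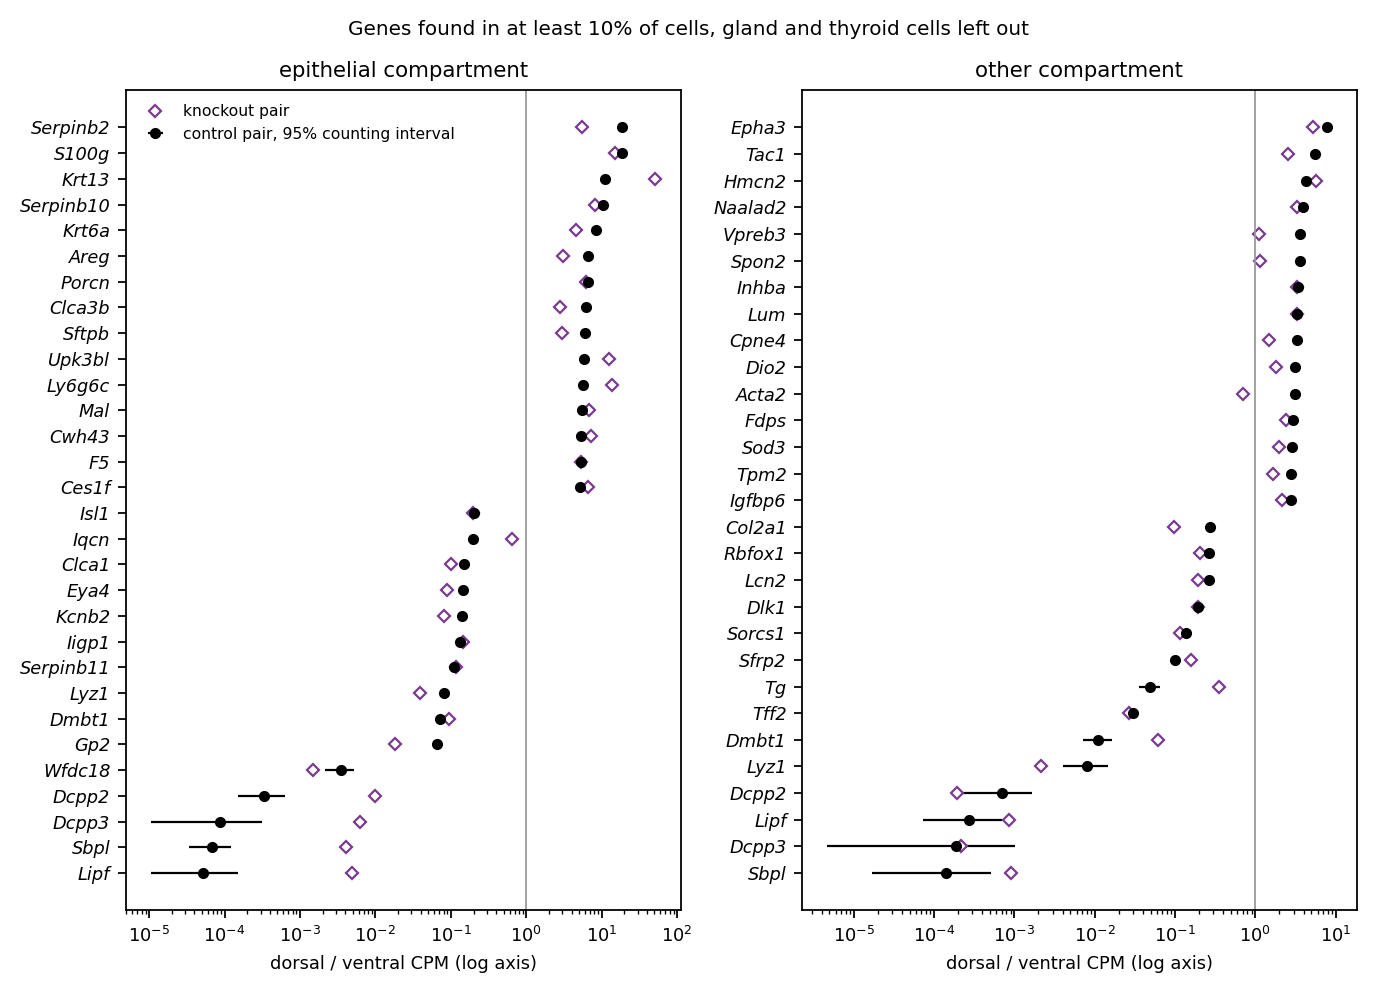
Dorsal-to-ventral ratio of CPM (log axis) for the genes with the largest ratios among those found in at least 10% of cells, in the epithelial and other compartments with gland and thyroid cells left out; filled points are the control pair with 95% counting intervals, open diamonds the knockout pair. In the epithelium every diamond lies on the side of its point; in the other compartment Acta2 does not.

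Cell type lists described the epithelial contrast in the same way. Of 10 measured hillock genes, 9 were at least 2-fold higher dorsally and none ventrally, with a median log2 ratio of 3.12 (2.72 without gland and thyroid cells, 2.68 in the knockout pair); besides Krt13 they included Krt4, at 457 and 128 CPM, and Ecm1, an extracellular matrix protein, at 242 and 61.7 CPM. The basal list had 3 of 10 genes past 2-fold dorsally and a median of 0.43, which was 0.02 without gland and thyroid cells. Krt17 was at 293 and 78.1 CPM, Krt14 at 52.7 and 16.6 CPM and Krt5, the general basal keratin, at 366 and 214 CPM; Krt14 was lower dorsally in the knockout pair, with a ratio of 0.636. Trp63, which encodes P63 and drives the Cre, differed little, at 33.9 and 36.7 CPM. Secretory genes went both ways. Scgb1a1, the club cell secretoglobin, was at 82956 CPM dorsally and 23996 CPM ventrally (3.46-fold, and 2.58-fold without gland and thyroid cells), whereas Scgb3a1 was at 8998 and 24560 CPM, lower dorsally in every setting except when all gland-, thyroid- and hillock-marked cells were dropped. Muc5b, the gel-forming mucin, was at 319 and 1012 CPM, a difference that lay with the gland and thyroid cells: without them it was at 319 and 287 CPM. The multiciliated list, with a median of 0.18 and no gene past 2-fold, had a median of -0.23 without those cells.

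Cell cycle genes were higher in the dorsal epithelium. Of 30 measured, 19 were at least 2-fold higher dorsally, none ventrally, and 28 had ratios above 1, against 37.9% of all genes; the median log2 ratio was 1.33, 1.19 without gland and thyroid cells and 1.72 in the knockout pair. Ube2c, a ubiquitin-conjugating enzyme of mitotic exit, was at 23.8 and 5.95 CPM. Top2a was at 16.3 and 5.86 CPM and Mki67, the proliferation marker that carries the Dre insertion in all these mice, at 8.43 and 3.34 CPM. The replication genes Pcna, the polymerase clamp, and Mcm2, a helicase subunit, differed less, at 73.8 and 62.3 CPM and at 2.06 and 2.22 CPM. Replication genes were not counted apart from the rest of the list. The cycle list did not stand out in the other compartment, where 0 of 28 genes were 2-fold higher dorsally and the median was -0.27.

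Signalling genes of the epithelium were mixed. Of 28 Wnt ligands and secreted regulators, 2 (Porcn and Wnt7b, a ligand made by airway epithelium, at 38.2 and 14.1 CPM) were 2-fold higher dorsally and 12 ventrally (17 without gland and thyroid cells), with a median of -0.78. Wif1, a secreted Wnt inhibitor among the 12, was in the epithelial compartment at 5.38% of its level in other cells, and the part of free RNA in this value was not tested. Of 18 Wnt target genes, 2 were 2-fold higher dorsally and 8 ventrally. Lgr6, a receptor of R-spondins, was at 128 and 39.2 CPM and Ccnd1, cyclin D1, at 200.2 and 98.6 CPM (1.67-fold without gland and thyroid cells, which left Lgr6 as the 1 target past 2-fold dorsally), while Axin2, the feedback inhibitor often used as a readout, was at 0.819 and 1.64 CPM. BMP and TGF-beta genes numbered 4 and 8 of 29, and 2 and 9 without gland and thyroid cells. The ligands Bmp6 (25.9 and 5.77 CPM) and Bmp4 (27.4 and 8.65 CPM) were higher dorsally, and Id3, a target of BMP signalling, was lower dorsally (44.2 and 103 CPM) with a knockout ratio of 1.11. Of 34 regional transcription regulators, 3 were 2-fold higher dorsally and 12 ventrally: Sox9, a regulator of cartilage and gland cells, was at 4.49 and 37.6 CPM (4.49 and 21.0 CPM without gland and thyroid cells), and Osr1, a zinc finger regulator of foregut mesenchyme, at 32.7 and 10.6 CPM. Each of these ventral shares can be read against the 20.2% of all genes that were 2-fold higher ventrally at this minimum. Several lists of non-epithelial cell types also leaned ventrally in this compartment. All 12 chondrocyte, all 10 blood endothelial and 7 of 8 lymphatic genes were 2-fold higher ventrally. Smooth muscle genes numbered 2 dorsally and 0 ventrally of 10. Chondrocyte marks were found in 0.345% of dorsal and 1.42% of ventral epithelial cells, and fibroblast marks in 2.53% and 4.66%. The part of such cells or their RNA in the counts above was not tested.

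Barrier and defence genes split as well. Junction genes were 2-fold higher dorsally in 5 of 25 and ventrally in 2, with a median of 0.41; Cldn4, a tight junction claudin, was at 1101 and 416 CPM (knockout ratio 1.06) and Cldn10, a channel-forming claudin, at 54.0 and 154 CPM, and at 54.0 and 89.0 CPM without gland and thyroid cells. Without those cells 3 junction genes were 2-fold higher dorsally and 2 ventrally. Chemokine genes were 2-fold higher ventrally in 18 of 28 and dorsally in 2, and in 15 and 2 without gland and thyroid cells. Their summed level went the other way, at 888 CPM dorsally and 632 CPM ventrally. Ccl20, which draws CCR6-bearing lymphocytes and dendritic cells, was at 6.68 and 26.2 CPM and Cxcl1, a chemokine for neutrophils, at 29.3 and 76.4 CPM, whereas Cxcl17, a mucosal chemokine-like protein, was at 651 and 204 CPM. Interferon response genes were 2-fold higher ventrally in 12 of 32 and dorsally in 1, and in 13 and 0 without gland and thyroid cells. The ventral chemokine and interferon counts can be read against the 20.2% of all genes that were 2-fold higher ventrally. Irf1, an interferon-induced regulator, was at 102 and 191 CPM, and the GTPases Irgm1 and Iigp1 were at 17.9 and 51.4 CPM and at 2.77 and 33.4 CPM (20.7 CPM ventrally for Iigp1 without gland and thyroid cells). Genes induced by tissue handling and clock genes, which could differ with the preparation, had no member past 2-fold in either direction in the epithelium, with medians of -0.14 and -0.11. Without gland and thyroid cells 1 gene of each list was 2-fold higher ventrally, in the handling list Egr1, an immediate early regulator, at 610 and 1309 CPM, and the medians were -0.33 and -0.40.

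**Figure D4:**
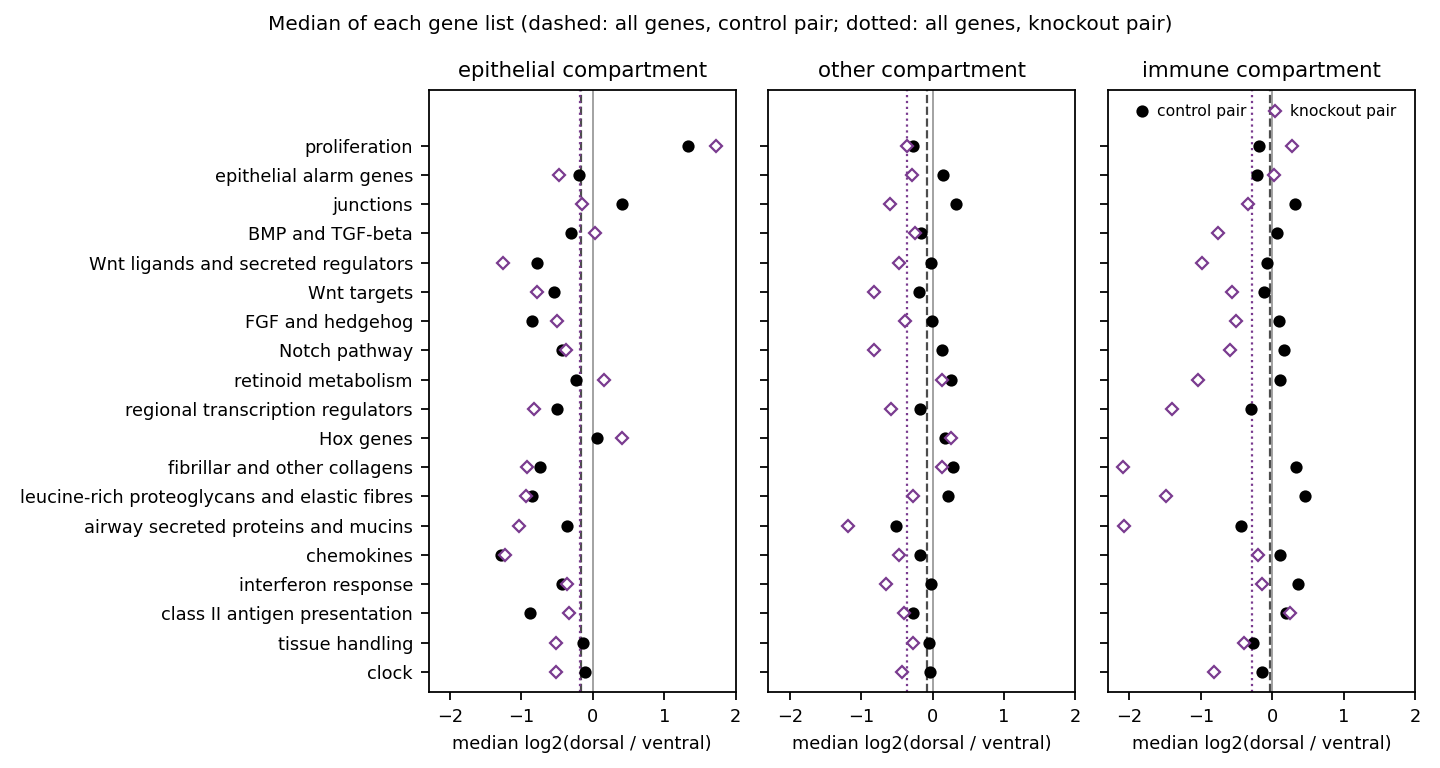
Median log2 ratio of dorsal to ventral CPM of each pathway list with at least 5 measured genes, by compartment; filled points are the control pair, open diamonds the knockout pair, the dashed and dotted lines the medians of all genes in each pair. In the epithelial compartment proliferation lies at 1.33 and chemokines at -1.28.

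The other compartment held mostly the connective tissue of the wall, with some cells that carried epithelial marks. Without thinning the multiciliated mark was found in 344 dorsal (9.85%) and 176 ventral other cells (4.19%), and after thinning in 39 and 37. Of 12 multiciliated genes, 7 were 2-fold higher dorsally in this compartment and 0 ventrally, where 3.29% of all genes were higher dorsally. The part of such cells in the shares and ratios of this compartment was not tested. Fibroblast-marked cells were 83.8% of dorsal and 72.8% of ventral other cells (difference 11.03 points, 8.96 to 13.1). Vessel cells were more frequent ventrally: blood endothelial marks were found in 1.85% and 6.74% (50 and 225 cells) and lymphatic endothelial marks in 2.04% and 8.45% (55 and 282 cells). Chondrocyte marks were found in 8.12% and 11.1%, and perichondrial marks in 6.05% and 9.38%. Smooth muscle cells were few on both sides, 29 dorsal (1.08%) and 17 ventral (0.509%), and without thinning the difference of 0.566 points became -0.044. Pericyte, Schwann, adipocyte and skeletal muscle marks were each found in at most 1 cell a library after thinning; without thinning the pericyte mark was found in 22 dorsal (0.630%) and 52 ventral cells (1.24%).

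Of 7004 genes measured in other cells, 94 (1.34%) were at least 2-fold higher dorsally and 147 (2.1%) ventrally. Smooth muscle and stromal genes led the dorsal side. Des, the muscle intermediate filament desmin, was at 27.7 and 0.772 CPM (35.9-fold, 25.6 to 51.9), but only 13 dorsal and 2 ventral cells held 5 UMIs or more. Cnn1 and Myh11, contractile proteins of smooth muscle, were 5.81- and 3.81-fold higher dorsally. The knockout pair did not repeat this: its ratios were 0.832 for Des, 0.905 for Cnn1 and 0.270 for Myh11. The smooth muscle list had 7 of 10 genes 2-fold higher dorsally, where 3.29% of all 19607 genes with at least 10 UMIs were, and a median of 1.75 against -0.45 in the knockout pair. Msmp, a small secreted protein, was 17.8-fold higher dorsally, with a knockout ratio of 0.380.

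Stromal genes formed the rest of the dorsal group and lay on the same side in the knockout pair. Epha3, an ephrin receptor, was at 59.8 and 7.46 CPM (8.02-fold, 7.13 to 9.04; knockout 5.27-fold) and was found in 26.5% of dorsal and 4.90% of ventral other cells. Tac1, the precursor of substance P, was at 107 and 19.1 CPM (5.62-fold; knockout 2.60-fold). The matrix genes Hmcn2, a hemicentin, and Lum, the collagen-binding proteoglycan lumican, were at 71.2 and 16.5 CPM and at 1140 and 341 CPM (knockout 5.76- and 3.36-fold). Naalad2, a peptidase, was 3.79-fold higher (knockout 3.31-fold) and Spon2, a secreted matrix protein, 3.60-fold (knockout 1.16-fold). Among fibroblast-marked cells alone (2495 dorsal, 2683 ventral, marked without thinning), Epha3 was 8.95-fold, Tac1 5.06-fold, Hmcn2 3.87-fold and Lum 3.01-fold higher dorsally. Lum belongs to the list that marked these cells, so its ratio there depends on how they were chosen. The knockout pair was not split this way.

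On the ventral side of the other compartment stood Sfrp2, a secreted Wnt modulator, at 39.5 and 391 CPM (9.89-fold higher ventrally, 9.31 to 10.5; knockout ratio 0.161). Dlk1, a membrane protein of stromal progenitors, was at 64.2 and 329 CPM (5.13-fold; knockout ratio 0.197), and Sorcs1, a sorting receptor, 7.17-fold higher. In fibroblast-marked cells the dorsal-to-ventral ratios were 0.0909 for Sfrp2, 0.169 for Dlk1 and 0.124 for Sorcs1. Skeletal matrix genes were ventral as well: Ibsp, bone sialoprotein, was 7.08-fold and Kera, keratocan, 5.27-fold higher. Lipf and Lyz1 were 15627-fold and 308-fold higher ventrally in other cells, of which 140 ventral ones passed the gland cut. Without gland and thyroid cells they were 3677-fold and 123-fold higher, and the part of free RNA in these values was not tested. Neb, the giant muscle protein nebulin, was 12.7-fold higher, and Nrgn, a calmodulin-binding protein, 15.4-fold, with a knockout ratio of 1.32. Cfd, the adipocyte complement factor, was 234-fold higher, with 98.7% of its UMIs in 1 cell, and without the top cells its dorsal-to-ventral ratio was 0.253.

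Lists of the other compartment placed cartilage and vessels ventrally. All 12 chondrocyte genes had ratios below 1 and 5 were 2-fold higher ventrally, where 10.7% of all genes were (median -0.85, knockout -2.72); Col2a1, the cartilage collagen, was at 111 and 395 CPM. Perichondrial genes gave 1 and 5 of 8, blood endothelial genes 0 and 7 of 10 (median -1.36), and lymphatic genes 0 and 7 of 8 (median -1.33), with Ccl21a, the lymphatic chemokine, at 1296 and 3562 CPM and Prox1, the lymphatic regulator, at 15.6 and 50.1 CPM. Among 26 Wnt ligands and secreted regulators 2 were 2-fold higher dorsally and 4 ventrally: Wnt16 stood at 20.4 and 55.2 CPM, and Sfrp4, a secreted inhibitor, at 122 and 40.1 CPM with a knockout ratio of 0.748. Of 29 BMP and TGF-beta genes 2 were 2-fold higher dorsally, Inhba (activin A subunit, 44.7 and 12.9 CPM) and Bmp5 (59.9 and 22.3 CPM), and 3 ventrally, including the ligand Gdf10 at 97.7 and 278 CPM. In fibroblast-marked cells the ratios were 3.10 for Inhba, 4.22 for Bmp5 and 0.316 for Gdf10. Collagen genes had 18 of 23 ratios above 1, against 41.3% of all genes of the compartment, and a median of 0.28; Col15a1 was at 320 and 155 CPM and Col23a1, a membrane collagen, at 263 and 565 CPM. Barx1, a homeobox gene of foregut mesenchyme, was at 8.85 and 28.7 CPM. Hox genes, which mark position along the body axis, had 3 and 4 of 17 past 2-fold and a median of 0.17, and interferon response, tissue handling and clock genes had medians of -0.02, -0.05 and -0.04.

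The immune compartment was the smallest, and its values rest on 427 dorsal and 551 ventral cells. Macrophage marks were found in 50.4% of dorsal and 34.9% of ventral immune cells (177 of 351 and 168 of 481, difference 15.5 points, 8.71 to 22.1). T cell marks were at 16.5% and 18.7%, a difference of -2.19 points whose interval (-7.31 to 3.15) includes 0; without thinning they were at 18.0% (77 of 427) and 25.8% (142 of 551), a difference of -7.74 points. B cell marks were found in 2 and 14 cells and neutrophil marks in 0 and 8, and 30.5% and 38.3% of cells carried no immune mark. Of 6369 genes, 98 (1.54%) were at least 2-fold higher dorsally and 137 (2.15%) ventrally.

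Of 23 genes of macrophage states, 2 were 2-fold higher dorsally and 3 ventrally, with 15 ratios above 1 and a median of 0.47. Lyve1, a hyaluronan receptor of vessel-associated macrophages, was at 446.5 and 121 CPM (3.69-fold, 3.36 to 4.07; knockout 1.30-fold). Vsig4, a complement receptor, was at 40.2 and 4.59 CPM (8.77-fold, 5.63 to 14.2; knockout 2.67-fold), Cxcl13, the B cell chemokine, at 219 and 34.4 CPM (6.37-fold; knockout 1.57-fold), and Fcna, a ficolin, at 174 and 42.3 CPM (4.12-fold; knockout ratio 0.432). The 10 macrophage markers all had ratios above 1, as 47.4% of all immune genes did, with a median of 0.71 (knockout 0.21); 1 was 2-fold higher, C1qc, a subunit of complement C1q, at 2415 and 1187 CPM, where 3.43% of the 12903 immune genes with at least 10 UMIs were. Since macrophage-marked cells were also a larger share of the dorsal immune cells, the genes were compared within them (214 dorsal and 207 ventral cells, marked without thinning). Vsig4 was 7.11-fold, Cxcl13 5.16-fold, Fcna 3.36-fold and Lyve1 3.02-fold higher dorsally, and C1qc 1.65-fold. C1qc belongs to the list that marked these cells, so its ratio there depends on how they were chosen. Retnla, the resistin-like product of alternatively activated macrophages, went the other way, at 2949 and 6145 CPM, and at a ratio of 0.423 in macrophage-marked cells.

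Lymphoid lists were mixed. The 10 T cell genes all had ratios below 1 (median -0.39), with 2 of them 2-fold higher ventrally, where 8.2% of all immune genes were, and 9 of 24 genes of lymphoid states were 2-fold higher ventrally and 1 dorsally. The NK and innate lymphoid list had 4 of 8 ratios above 1, none past 2-fold and a median of 0.00442. Il17a, the type 17 cytokine, was at 48.6 and 146 CPM (knockout ratio 1.11) and Ctla4, an inhibitory receptor of T cells, at 14.2 and 61.0 CPM (knockout ratio 1.09). Mcpt2 and Mcpt1, mast cell proteases with no dorsal UMI, were at least 61.2-fold and 44.4-fold higher ventrally, but 89.97% and 87.9% of their UMIs came from 1 cell. Interferon response genes had 24 of 31 ratios above 1, against 47.4% of all immune genes, and 5 genes 2-fold higher dorsally, among them Ifit3 at 34.1 and 9.94 CPM (knockout ratio 1.01). Class II antigen presentation genes differed little: H2-Aa was at 10249 and 8376 CPM and Cd74, the invariant chain, at 32179 and 27733 CPM. Several leading dorsal genes rested on few cells or belong to stroma: 68.5% of the dorsal UMIs of Igfbp5 came from 1 cell, and without the top cells its ratio was 4.87 rather than 14.4. All 10 fibroblast markers also had ratios above 1 in immune cells, with a summed level of 1136 CPM dorsally and 323 CPM ventrally; their part in the immune contrast was not tested. Of 26 genes induced by tissue handling, 3 were 2-fold higher ventrally in immune cells and none dorsally (median -0.27), including the heat shock genes Hspa1a, at 135 and 343 CPM, and Hspa1b, at 80.2 and 243 CPM; their part was not tested either.

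Few genes differed in the same direction in all 3 compartments. Among 4285 genes measured in each, 2 had a counting interval past 2-fold dorsally in all 3, Tppp3 and Krt8, and 13 did so ventrally, including Sbpl, Lipf, Dcpp2, Dcpp3 and Tff2, whose RNA was found in ventral cells of every kind. Tppp3, a tubulin polymerization protein, was at 528 and 162 CPM in epithelial cells (3.27-fold), 169 and 60.0 CPM in immune cells (2.81-fold) and 338 and 124 CPM in other cells (2.74-fold). Its ratios in the knockout pair were 3.43, 2.81 and 2.62. Krt8, a simple-epithelium keratin, was 2.06-fold higher in the epithelium, 3.41-fold in immune and 2.79-fold in other cells. It was 1.85-fold higher in the epithelium without gland and thyroid cells, so that Tppp3 alone passed 2-fold in all 3 there. The dorsal level of Krt8 was 1859 CPM in epithelial, but 26.1 CPM in immune (81 dorsal and 40 ventral UMIs) and 63.2 CPM in other cells. These 2 lower levels lie under the 10% of another compartment's level asked of the genes with the largest ratios. The part of free RNA in them was not tested. The knockout ratios of Krt8 were 1.65, 0.253 and 1.98, and the immune ratio rested on 2 dorsal and 9 ventral UMIs. Of the 10 genes with the largest ratios on each side, the knockout pair placed 10 dorsal and 10 ventral epithelial genes, 7 and 8 immune genes, and 6 and 9 other genes on the control pair's side.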

How the data were processed

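Single-cell RNA was measured in 2 control and 2 knockout libraries. The authors deposited a matrix of UMI counts for each library, with 33697 features. The submitters' processing notes name Cell Ranger 10.0.0 and GRCm39. Which annotation and cell calling settings were used was not given in the sources used here. Replicate numbers only name the libraries. Members and lists were chosen with earlier results of these data known.

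Barcodes were filtered, placed in compartments and summed; a gene's ratio of CPM has a conditional binomial interval, a share an exact (Clopper-Pearson) one and a difference of shares a Newcombe one, all at 95% and covering counting error only. With 1 library a side no test was run. Log2 ratios used a pseudocount of 0.5 UMIs; a count of 0 was bounded by a floor of 3 UMIs per library. Named genes were the 10 per compartment and direction whose interval bound nearest 1 was farthest from it, among genes with at least 50 UMIs and 20 CPM and at least 10% of their highest level in another compartment, together with up to 4 members of each list; Krt4, Trp63, Top2a, Mki67, Mcm2 and Axin2 were added after their values were seen. The rule for genes in at least 10% of cells, 15 per direction, was chosen after values were seen. No doublets were removed; as an alternative, the cells with the highest Scrublet scores (scanpy 1.11.5), 0.4% per 1000 barcodes, were removed, where its automatic threshold called 275 dorsal (2.08%) and 51 ventral cells (0.523%). Python 3.11.15, numpy 2.4.6, scipy 1.17.1, pandas 2.3.3 and matplotlib 3.10.9 were used, and the ratio and interval code was tested on simulated data. Alternatives were other filters, compartment rules, scalings, thinning and minimum counts.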

Additional observations from a re-analysis of the deposited data

How the results depend on the processing

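Every result is 1 library against 1 library, so no setting below measures variation between mice or dissections, and fixed thresholds on UMIs depend on depth. No paired analysis was possible because each group has 1 library and its number comes from accession order. Leaving out gland and thyroid cells, or the cell with the most UMIs, was chosen after seeing the data. Of 4113 values of named genes over the alternatives, 3001 stayed within the counting interval, 1095 moved with their direction kept and 17 turned; median-of-ratios scaling shifted log2 ratios by -0.06, 0.04 and -0.01 in epithelial, immune and other cells.

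The epithelial difference of shares was 20.9 points at 1000 genes or more, 21.7 with 2 UMIs of a marker, 21.2 with gene panels, 15.2 thinned to 2000 UMIs and 25.5 without gland and thyroid cells. The immune difference was -3.15 with panels, -1.87 thinned and -3.35 without those cells, and the other difference -18.9 with 2 UMIs, -18.0 with panels, -13.2 thinned and -21.8 without those cells. Without thinning, the marked differences were 19.1 (hillock), -87.0 (gland), -5.02 (thyroid), 7.55 (fibroblast), -0.044 (smooth muscle, which turned), -6.31 (blood endothelial) and -7.74 points (T cell); with 1 UMI of each of 4 genes they were -36.3 (gland), -4.12 (thyroid) and -6.67 (blood endothelial). Thinned, the difference at 5 eGFP UMIs was 2.71 points rather than 0.607.

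Genes past 2-fold dorsally and ventrally numbered 574 and 4380 (epithelial), 443 and 1058 (immune) and 645 and 2100 (other) at 10 UMIs, and 103 and 75, 35 and 65, and 50 and 70 at 50 CPM. The dorsal count was 63 in immune cells with panels, 104 in epithelial cells without gland and thyroid cells, and 194 in other cells when every cell weighed the same. Dropping all gland-, thyroid- and hillock-marked epithelial cells without thinning left 7050 dorsal and 503 ventral cells, and gave 68 dorsal and 752 ventral genes.

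Log2 ratios that turned were, with panels, immune Dlk1 (-2.32), Ogn (-0.92) and Serping1 (-0.040) and the epithelial median of collagens (0.016); with doublet scores removed, immune Chad (0.16), Snorc (0.63) and Ucma (2.52); and without gland and thyroid cells, epithelial Iyd (0.22) and Muc5b (0.15). In marked cells only, or with marked cells left out, they were epithelial Col17a1 (-0.0057), Dsc2 (-0.011), Krt14 (-3.50), Msln (0.047), Muc5b (1.94), Plac8 (-0.46) and Scgb3a1 (1.07), immune Ccr7 (2.07), other C1qc (-0.37) and the immune median of B cell genes (0.075). The cause was not tested for these. Only genes at least 2-fold apart and list medians at least 0.5 from 0 in the main setting could enter this account. Smaller values that changed side, such as the epithelial median of multiciliated genes, are not in it.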
